A study of Rattus norvegicus with 3 samples.

Results

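Transcripts of 7 genes that mark peripheral nerve were examined in the sublingual, submandibular and parotid glands of rats: Pmp22, Mbp, S100b and Ngfr, known from Schwann cells, and Prph, Gap43 and Uchl1, known from neurons and their axons. Members were taken by the gene name that the array file gives each probe. The names of 6 members were found, with 7 probes, and Prph was found through its RefSeq accession under the older name Prph1, giving 8 probes for all 7 members among 15863 genes of the array that were matched to a RefSeq gene. Of the 7 members, 5 were well above background on at least 1 array, and S100b and Uchl1 were not on any.

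The study compared the sublingual, submandibular and parotid glands of male Wistar rats, labelled as normal and aged 10 weeks. Total RNA from a piece of each gland was made into Cy3-labelled cRNA and hybridised to an Agilent array, 1 per gland. The design text names 3 rats, and the sources used here do not say which animal or animals gave which RNA, so there are no replicates. Every value describes 1 array, no test between glands was possible, and precision is limited by having 1 array per gland. No gene spot was saturated. The arrays shared 1 slide and 1 scan, so the gland cannot be told apart from the place of its array on that slide. Between 63.0% and 64.7% of genes were well above background on each array.

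The gland labels were set against defining products. All 6 parotid serous products were over 2-fold below the parotid array on both other arrays, and all 6 mucous products were over 2-fold above it on both. Between the sublingual and submandibular-labelled arrays, 0 of the 6 mucous products were 2-fold apart (median -0.12). Of all genes, 0.948% were 2-fold or more higher and 0.59% lower on the sublingual array, so these 2 arrays were much alike. Of 12 probed products of the granular convoluted ducts, a feature of the male rat submandibular gland, 10 were compared between the array with the submandibular label and the parotid array. Of these, 0 reached 2-fold above the parotid, against 10.9% of all genes. Of 7 compared between the sublingual and the submandibular-labelled arrays, 1 was 2-fold or more lower on the sublingual array. The array is therefore called submandibular-labelled throughout. The comparison of the sublingual with the parotid array does not use it.

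Salivary glands are supplied by parasympathetic and sympathetic nerves, whose thin unmyelinated fibres run with sensory fibres in bundles wrapped by Schwann cells. A Schwann cell keeps its messenger RNA in the gland itself, whereas a neuron keeps most of its messenger RNA in its cell body. Parasympathetic neurons for the submandibular and sublingual glands sit in the submandibular ganglion and in small ganglia near or within the gland ducts, those for the parotid gland sit in the otic ganglion outside the gland, and sympathetic neurons for all 3 glands sit in the superior cervical ganglion. Glial and neuronal transcripts therefore need not follow each other in a piece of gland.

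In these arrays they had different orders. The glial members Mbp and Ngfr were lower on the sublingual and the submandibular-labelled arrays than on the parotid array, while the neuronal members Prph and Gap43 had close levels on the sublingual and parotid arrays and were lower on the submandibular-labelled array. Pmp22 differed by at most 1.26-fold between any pair of arrays when they were scaled to their 75th percentile. These are 5 genes on 3 arrays, and whether the glial and neuronal patterns differ beyond chance between animals was not tested. In a bulk sample, fewer cells of a type and less RNA per cell cannot be told apart.

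**Figure D1:**
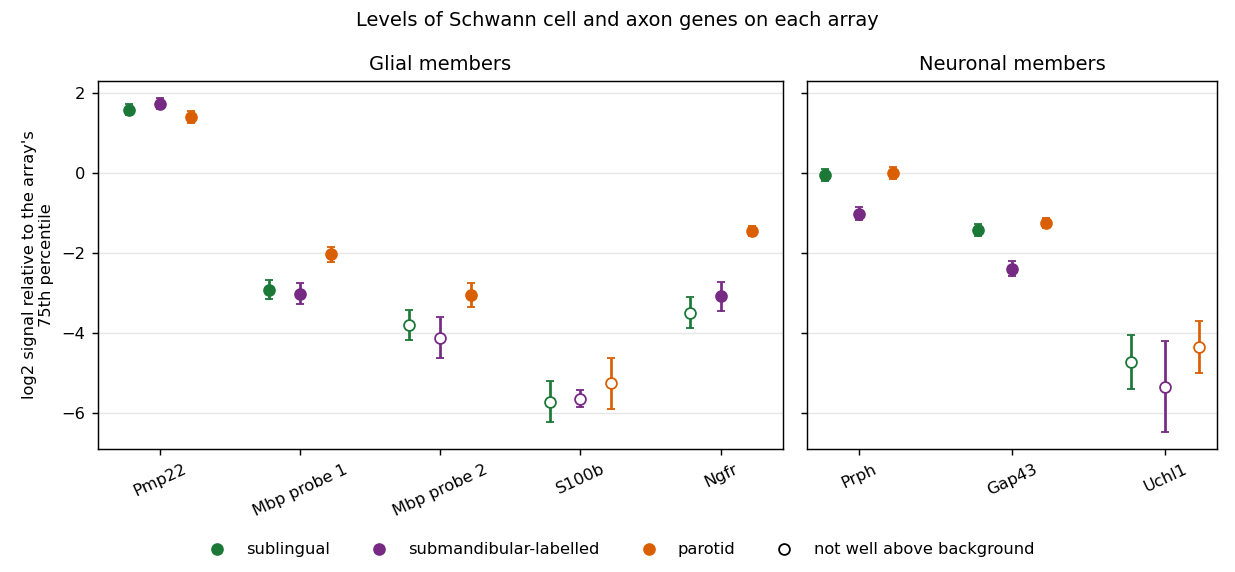
Level of each member probe (y axis, log2 signal relative to the array's 75th percentile) on the sublingual, submandibular-labelled and parotid arrays; bars are the SD of repeat spots for Ngfr, S100b and Gap43 and the scanner software's error for the single spots of the other probes, and open symbols were not well above background. Ngfr is at -3.49, -3.07 and -1.45 on these arrays, and Gap43 at -1.42, -2.39 and -1.25.

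Promoter sequences, from RefSeq on build GRCr8, were found for 5 of the 7 members. That of Prph is shown because this neuronal gene differed between arrays and was well above background on all 3, and that of Pmp22 because this glial gene was not lower than in the parotid on either other array. Each runs from 250 bases before to 50 bases after the annotated start of the gene (Prph at chr7:132097039-132097338 and Pmp22 at chr10:48294682-48294981, both on the plus strand). Capitals mark matches on either strand to the TATA box letters TATAAA and the GC box letters GGGCGG.
Prph: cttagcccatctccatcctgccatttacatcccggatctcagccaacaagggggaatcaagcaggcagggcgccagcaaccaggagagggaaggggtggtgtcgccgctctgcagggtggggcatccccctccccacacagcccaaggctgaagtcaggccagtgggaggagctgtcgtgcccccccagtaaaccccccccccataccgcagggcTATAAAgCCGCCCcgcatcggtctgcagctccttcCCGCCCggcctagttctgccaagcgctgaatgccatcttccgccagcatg
Pmp22: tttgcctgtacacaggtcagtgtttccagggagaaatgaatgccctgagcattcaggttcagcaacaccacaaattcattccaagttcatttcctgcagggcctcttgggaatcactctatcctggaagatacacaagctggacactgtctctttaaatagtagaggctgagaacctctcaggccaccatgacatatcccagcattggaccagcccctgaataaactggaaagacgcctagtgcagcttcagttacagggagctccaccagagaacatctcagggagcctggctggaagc
The Prph window holds 1 TATAAA match, starting at position -35 from the gene's start, followed without overlap by a GGGCGG match at position -28 and another at position 1. The Pmp22 window holds neither set of letters. Of 33469 rat promoters of this length, 14.2% hold TATAAA and 33.1% hold GGGCGG. The E-box letters CANNTG (in 72.1% of promoters) and the SOX-type letters ACAAAG (in 18.8%), searched on both strands, are in neither window. The Prph window has a GC content of 64.3% and the Pmp22 window of 49.7%. A match describes the letters and is not a measured site.

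Among the glial members, Ngfr had the widest range. It encodes the p75 neurotrophin receptor, which binds all neurotrophins and is carried by non-myelinating and immature Schwann cells as well as by sympathetic and sensory neurons. Its probe, on chromosome 10 from 84263082 to 84263141 in the rn4 build of the files, was printed 10 times per array. The spots had processed signals from 13.8 to 31.7 (median 21.3) on the sublingual array. They lay between 16.3 and 39.2 (median 28) on the submandibular-labelled array, and between 57.9 and 75.7 (median 68.95) on the parotid array. No spot of either other array reached the lowest parotid spot, whereas the sublingual and submandibular-labelled spots overlapped. Well above background were 4 of 10 sublingual spots, 7 of 10 submandibular-labelled spots and 10 of 10 parotid spots.

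After scaling, the Ngfr level was -3.49 ± 0.39 for sublingual, -3.07 ± 0.36 for submandibular-labelled and -1.45 ± 0.12 for parotid (log2 signal relative to each array's 75th percentile, SD of 10 spots). Most sublingual spots were not well above background, though their mean level lay above that array's lowest level well above background (-3.74). The difference of sublingual minus parotid, -2.03 (combined spot SD 0.40), is therefore that of the measured levels and not a bound. By this value Ngfr was 4.09-fold lower in the sublingual gland. It was 3.08-fold lower with the submandibular label than in the parotid (-1.62, combined spot SD 0.38). Between the sublingual and submandibular-labelled arrays the measured difference was -0.41, within the combined spot SD of 0.53, and the spots overlapped. The spread of repeat spots covers printing and hybridisation on 1 array and neither animals nor labelling. It is the spread of single spots and is wider than the error of their mean, so a difference within it is not shown to be absent. The sizes depend on the background correction: with normexp, which adds an offset of 50 to signals of this size, the differences from the parotid were -0.86 for sublingual and -0.76 for submandibular-labelled.

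**Figure D2:**
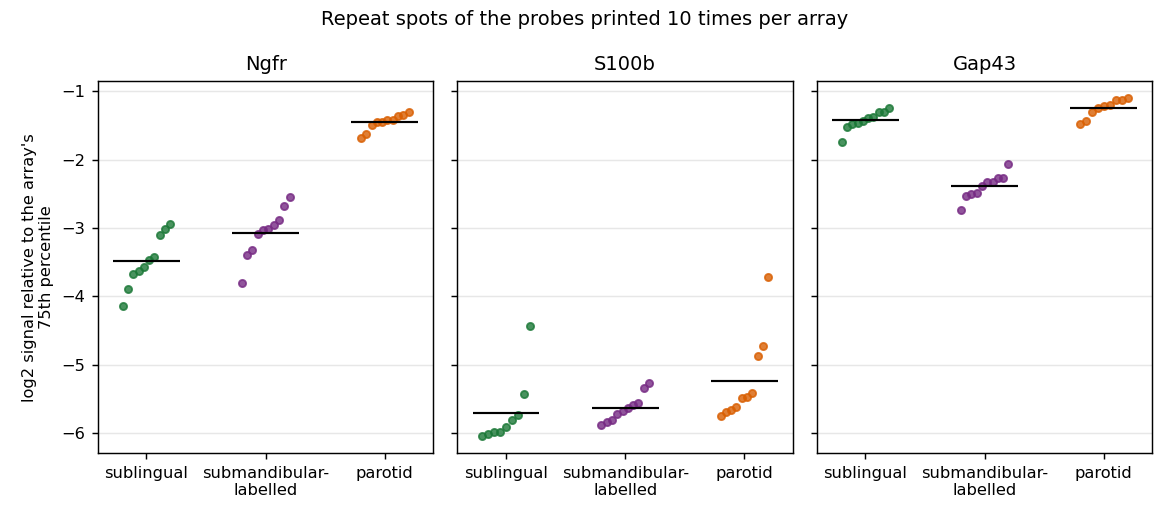
Each point is 1 spot of the Ngfr, S100b or Gap43 probe (y axis, log2 signal relative to the array's 75th percentile) and the bar is the mean, with the sublingual, submandibular-labelled and parotid arrays from left to right; spots with an outlier flag are left out. Parotid Ngfr spots lie above all spots of both other arrays, Gap43 spots of the submandibular-labelled array lie below those of both other arrays, and S100b spots overlap on all 3 arrays.

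Mbp encodes myelin basic protein, which compacts the myelin sheath, and its locus also yields Golli transcripts that are known from leukocytes. It has 2 probes, on chromosome 18 from 79055910 to 79055969 and from 79044276 to 79046214 (rn4). The first had processed signals of 32.4 on the sublingual, 28.2 on the submandibular-labelled and 45.7 on the parotid array. It was well above background on each of them, highest in the parotid. Its levels were -2.91, -3.02 and -2.03 in that order, so that sublingual minus parotid was -0.89 (1.85-fold lower) and submandibular-labelled minus parotid -0.99 (1.99-fold lower). These sizes are 2.96 and 3.04 times the scanner software's combined error of 0.30 and 0.33. The second probe had signals of 17.6, 13.2 and 22.5 and was well above background on the parotid array only. It was lower by at least 1.61-fold on the sublingual and by at least 1.44-fold on the submandibular-labelled array. These bounds are 1.44 and 0.90 times its combined scanner error of 0.48 and 0.59. Both probes were lower on these arrays than in the parotid, the second within its error for the submandibular-labelled array. With normexp the first probe's differences were -0.48 for sublingual and -0.30 for submandibular-labelled.

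Pmp22 encodes peripheral myelin protein 22, a membrane protein of compact myelin that fibroblasts and epithelial cells are also known to make. Its probe, on chromosome 10 from 49335537 to 49335596 (rn4), had signals of 729 (sublingual), 757 (submandibular-labelled) and 489 (parotid). After scaling to the 75th percentile, which was a signal of 244 on the sublingual, 228 on the submandibular-labelled and 186 on the parotid array, the levels were 1.58, 1.73 and 1.39. The difference of sublingual minus parotid was 0.18 and that of submandibular-labelled minus parotid 0.34, against a scanner error of 0.20 for each. The difference of 0.34 is 1.65 times that error. With centring on the median the differences were 0.42 and 0.65, a scaling that also raised the median over all genes. Of the 3 glial members with a difference, Pmp22 alone was not lower on the sublingual and submandibular-labelled arrays than on the parotid array.

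S100b encodes a calcium-binding protein of Schwann cells and other glia that is also known from adipocytes. Its probe, on chromosome 20 from 12791899 to 12791958 (rn4), was printed 10 times per array. The spots had signals of 3.68 to 11.3 on the sublingual array (9 spots, 1 with an outlier flag left out), 3.86 to 5.93 on the submandibular-labelled array and 3.47 to 14.1 on the parotid array. None of these spots was well above background, and the ranges of all 3 arrays overlapped. A looser criterion of the scanner software, a signal positive and significant against background, was met by 3 of 9 sublingual, 1 of 10 submandibular-labelled and 5 of 10 parotid spots. No fold is given for S100b.

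Among the neuronal members, Gap43 was measured most often. It encodes growth-associated protein 43 of growing and regenerating axons, and Schwann cells are known to make it too. Its probe, on chromosome 11 from 60083891 to 60083950 (rn4), had 10 spots per array, all used ones well above background. Signals ran from 72.6 to 103 (median 92.05) on the sublingual array. They ran from 34.1 to 54.4 (median 44.6) on the submandibular-labelled array, and from 66.8 to 86.9 (median 80.2, 9 spots, 1 with an outlier flag left out) on the parotid array. No submandibular-labelled spot reached the lowest spot of either other array.

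The Gap43 levels were -1.42 ± 0.14 for sublingual, -2.39 ± 0.18 for submandibular-labelled and -1.25 ± 0.13 for parotid (SD of 10, 10 and 9 spots). Gap43 was 1.95-fold higher on the sublingual than on the submandibular-labelled array (0.97, combined spot SD 0.23) and 2.21-fold lower with the submandibular label than in the parotid (-1.14, combined spot SD 0.23). Sublingual minus parotid was -0.18, smaller than the combined spot SD of 0.20, and with centring on the median it was 0.06. With normexp the sublingual array was above the submandibular-labelled array by 0.38 and the submandibular-labelled array below the parotid array by 0.58.

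Prph encodes peripherin, an intermediate filament of neurons of the peripheral nervous system, including autonomic and small sensory neurons. Its single spot, on chromosome 7 from 137839865 to 137839924 (rn4), had a signal of 235 on the sublingual, 113 on the submandibular-labelled and 185 on the parotid array. The submandibular-labelled array was the lowest, and the other arrays were close after scaling, with levels of -0.05 (sublingual), -1.01 (submandibular-labelled) and -0.01 (parotid). Prph was 1.94-fold higher on the sublingual than on the submandibular-labelled array (0.96, 4.53 times the scanner error) and 2.01-fold lower with the submandibular label than in the parotid (-1.005, 4.73 times the scanner error). Sublingual minus parotid was -0.05, within the scanner error of 0.21, and turned to 0.19 with centring on the median.

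Uchl1 encodes a ubiquitin hydrolase abundant in the cell bodies and axons of most neurons. Its probe, on chromosome 14 from 44117705 to 44118696 (rn4), had signals of 9.27 on the sublingual, 5.66 on the submandibular-labelled and 9.22 on the parotid array. None was well above background, though all 3 spots met the looser criterion. The levels were -4.72 ± 0.67 for sublingual, -5.33 ± 1.14 for submandibular-labelled and -4.33 ± 0.65 for parotid (scanner error of 1 spot), and these errors overlap. No fold is given for Uchl1. Probes were not placed in exons or UTRs, because the gene annotation used here is of another build.

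Members at least 2-fold apart were counted beside all genes that could be compared. Of sublingual minus submandibular-labelled differences, 0 of 5 members were at least 2-fold higher, against 0.948% of 10339 genes, and 0 of 5 at least 2-fold lower, against 0.59%. Of sublingual minus parotid differences, 0 of 5 were higher, against 12.5% of 10763 genes, and 1 of 5 (Ngfr) lower, against 12.3%. For the submandibular-labelled against the parotid array, 0 of 5 were higher, against 10.9% of 10754 genes, and 3 of 5 (Ngfr, Prph and Gap43) lower, against 11.0%. Both differences from the parotid rest on the same parotid array. The count of 3 became 1 with median centring, 1 with quantile normalization and 0 with normexp, and the count of 1 for sublingual became 0 with normexp. With the deposited values, and with the median of a gene's probes, the count of 3 became 4. The 2-fold line runs close by several members, since Prph was 2.01-fold and Mbp 1.99-fold lower on the submandibular-labelled array.

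By median, the 3 compared glial members were at -0.89 for sublingual minus parotid and -0.99 for submandibular-labelled minus parotid, and the 2 compared neuronal members at -0.11 and -1.07. For sublingual minus submandibular-labelled the medians were -0.15 (glial) and 0.96 (neuronal). With 3 genes, each glial median is the value of 1 gene. It is the brighter Mbp probe, a single spot, in both differences from the parotid, and Pmp22 between the sublingual and submandibular-labelled arrays. Over all genes compared, the medians were 0.06 for sublingual minus parotid, 0.10 for submandibular-labelled minus parotid, and, between the sublingual and submandibular-labelled arrays, -0.05. With arrays centred on their median these became 0.29, 0.41 and -0.12. Under that scaling the neuronal median of sublingual minus parotid turned to 0.13. The glial medians, again the values of Mbp and Pmp22, stayed below 0.

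**Figure D3:**
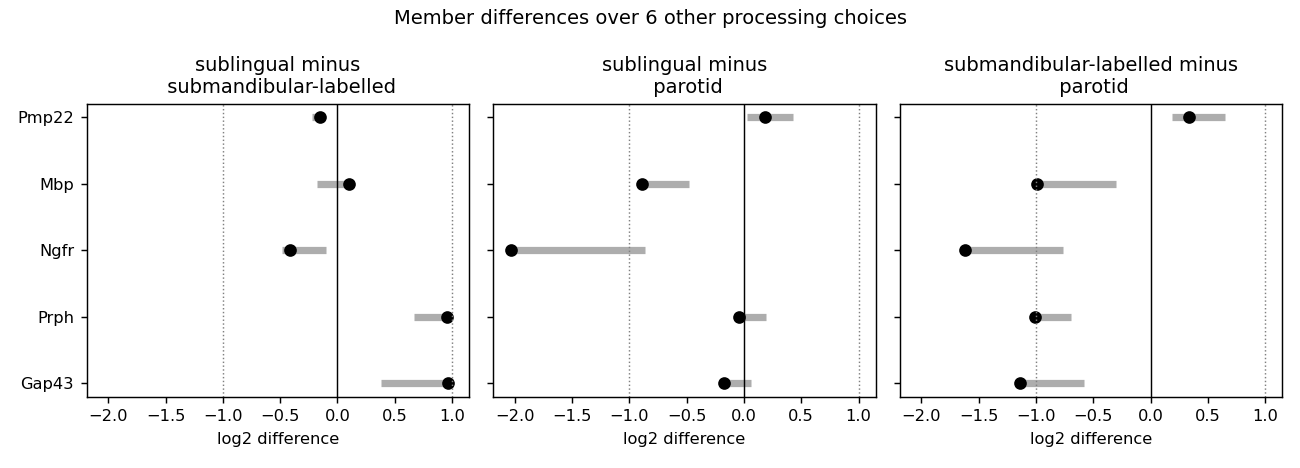
Log2 difference of each member well above background (x axis) for each pair of arrays; the dot is the value as reported and the line spans the lowest and highest value over the main and 6 alternative settings. The Ngfr lines against the parotid stay below 0, from -2.04 to -0.86 for sublingual and from -1.64 to -0.76 for submandibular-labelled, while those of Gap43 and Prph for sublingual minus parotid cross 0. For sublingual Ngfr the sign was fixed by the rule for dim probes, except under the looser background flag.

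A wider list of 27 Schwann cell lineage and myelin genes, none of them a member, was read beside the glial members. It had probes for 25, and 9 of these (Erbb3, Mag, Gfap, Cdh19, Foxd3, Fabp7, Ugt8, Pou3f1 and Ncam1) were not well above background on any array. Of 15 genes compared between the sublingual and parotid arrays, 0 lay 2-fold or more above the parotid and 8 lay 2-fold or more below it, with a median of -1.39, where 12.3% of all genes lay that far below. Of 16 compared between the submandibular-labelled and parotid arrays, 0 lay 2-fold or more above the parotid and 8 lay 2-fold or more below it, with a median of -1.09, where 11.0% of all genes did. Between the sublingual and submandibular-labelled arrays, 0 of 15 were 2-fold apart in either direction and the median was -0.14. Of all genes, 0.948% were that far higher and 0.59% that far lower, so a count of 0 is near the share of all genes. Across the list, 2 of 15 genes were higher than in the parotid by any amount on the sublingual array and 3 of 16 on the submandibular-labelled array. Named here after their values were seen, these were Prx (at least 1.62-fold) and Egr2 (1.34-fold) for sublingual, and Prx (at least 1.51-fold), Cldn19 (at least 1.14-fold) and Art3 (1.105-fold) for submandibular-labelled. With normexp the medians against the parotid were -0.76 for sublingual and -0.72 for submandibular-labelled. At a 4-fold threshold, 1 gene of the list was lower against the parotid on each array. The counts and medians include differences whose direction was fixed because 1 array of the pair was dim.

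Sox10, the transcription factor that Schwann cells need throughout life, had levels of 2.41 (sublingual), 3.02 (submandibular-labelled) and 4.51 (parotid). Against the parotid it was 4.29-fold lower on the sublingual array and 2.82-fold lower with the submandibular label. Sox10 is also known from salivary gland epithelium. The 4 other genes of the list named for the size of their difference were also lower than in the parotid. Scn7a, an atypical sodium channel known from non-myelinating Schwann cells, was 3.92-fold lower on the sublingual and 4.86-fold lower with the submandibular label, against the parotid. Lgi4, a ligand secreted by Schwann cells, was 3.39-fold and 3.67-fold lower in the same comparisons. Adgrg6, an adhesion receptor needed to start myelination, was 3.36-fold and 3.03-fold lower. L1cam, an adhesion molecule of axons and non-myelinating Schwann cells, was 3.25-fold and 3.30-fold lower.

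**Figure D4:**
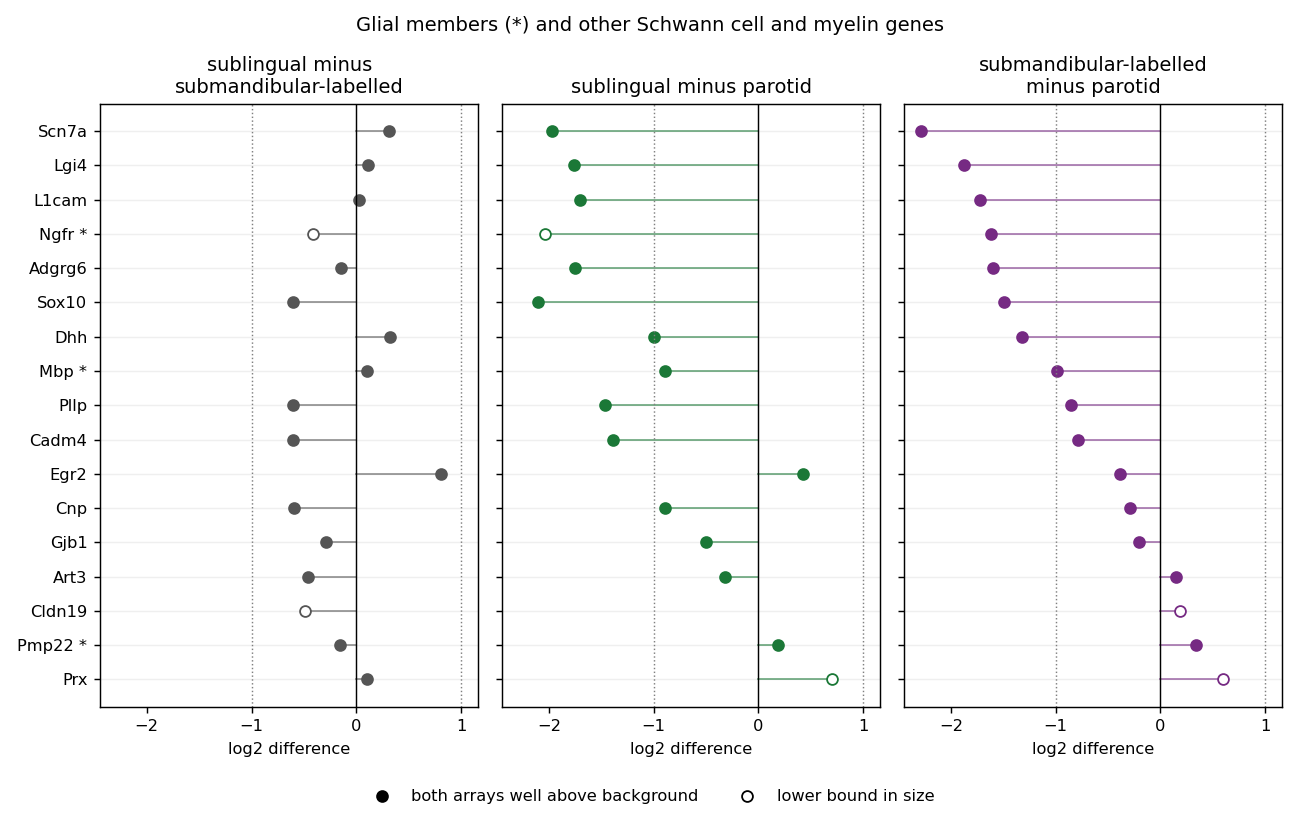
Log2 difference (x axis) between each pair of arrays, 1 panel per pair, for the glial members (asterisk) and the genes of the Schwann cell lineage and myelin list with a difference (1 row per gene, some genes not shown). Open symbols are lower bounds in size, except for Ngfr, where they are differences of measured levels. Dotted lines mark 2-fold. Against the parotid most rows lie left of 0, with Scn7a at -1.97 for sublingual and -2.28 for submandibular-labelled, while Pmp22 lies right of 0 at 0.18 and 0.34.

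A list of 28 genes of neuronal structure (neurofilaments, cytoskeleton and synaptic proteins) was read beside the neuronal members. All had probes, and 14 were not well above background on any array, among them Nefl, the light neurofilament. Of 14 compared between the sublingual and parotid arrays, 1 lay 2-fold or more above the parotid and 1 lay 2-fold or more below it (median 0.18), against 12.5% and 12.3% of all genes. Of 12 compared between the submandibular-labelled and parotid arrays, 1 was higher and 1 lower (median -0.20), against 10.9% and 11.0%. Of 13 compared between the sublingual and submandibular-labelled arrays, 1 was higher and 0 lower (median 0.22), against 0.948% and 0.59%. These medians are near 0 and each changed sign under at least 1 alternative.

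Stmn2, a tubulin regulator of growing neurons, had levels of -2.02 (sublingual), -2.97 (submandibular-labelled) and -2.19 (parotid). The submandibular-labelled array was the lowest, as for Gap43 and Prph: sublingual minus submandibular-labelled was 0.95 and submandibular-labelled minus parotid -0.79. Tubb3, a neuronal tubulin, was at -2.44 (sublingual), -2.73 (submandibular-labelled) and -1.97 (parotid), lowest again on the submandibular-labelled array. Unlike Gap43 and Prph, its sublingual level was nearer the submandibular-labelled array (0.29) than the parotid array (-0.47). Across the list, sublingual minus submandibular-labelled was above 0 for 7 of 13 genes and below 0 for 6. Nefm, the medium neurofilament, had another order, with levels of -2.50 (sublingual), -2.72 (submandibular-labelled) and -5.32 (parotid, not well above background). It exceeded the parotid by at least 1.91-fold on the sublingual and by at least 1.64-fold on the submandibular-labelled array.

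In all, 3 genes of the list were at least 2-fold apart. Chga, a granule protein of endocrine cells and neurons, was 2.63-fold higher on the sublingual than on the submandibular-labelled array. Mapt, the microtubule-associated protein tau, was 2.08-fold higher on the sublingual and 2.32-fold higher on the submandibular-labelled array than on the parotid array. Sncg, a synuclein of sensory neurons that adipocytes also make, was 3.62-fold lower on the sublingual and 4.64-fold lower on the submandibular-labelled array.

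**Figure D5:**
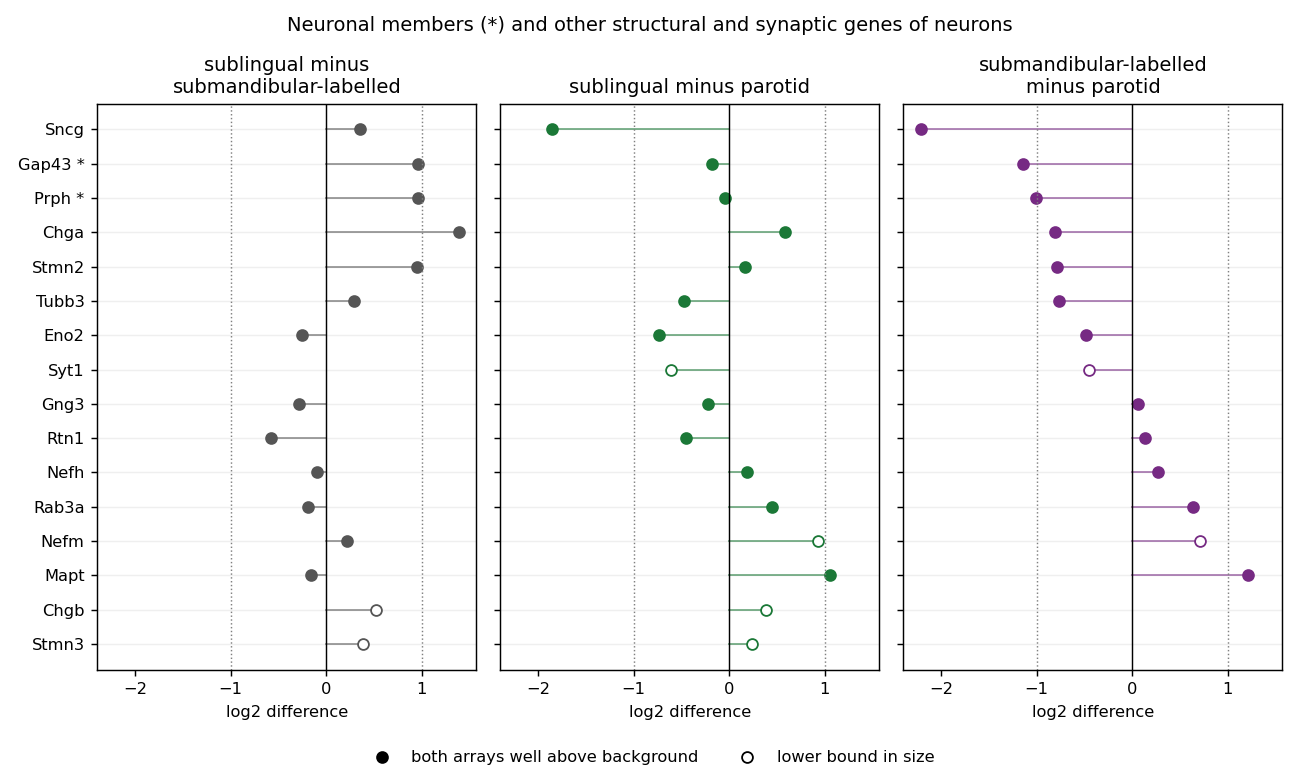
Log2 difference (x axis) between each pair of arrays, 1 panel per pair, for the neuronal members (asterisk) and the genes of the neuronal structure list with a difference (1 row per gene); open symbols are lower bounds in size, and dotted lines mark 2-fold. Rows lie on both sides of 0 in each panel, with Mapt at 1.05 and Sncg at -1.85 for sublingual minus parotid.

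Genes that tell autonomic and sensory neurons apart made a list of 25, of which 14 were not well above background on any array. Chat, the enzyme that makes acetylcholine in parasympathetic neurons, was among these 14. Of 11 genes compared between the sublingual and parotid arrays, 3 were 2-fold or more above the parotid and 3 below it (median -0.0013), against 12.5% and 12.3% of all genes. Of 10 compared between the submandibular-labelled and parotid arrays, 2 were higher and 2 lower (median -0.10), against 10.9% and 11.0%. Of 8 compared between the sublingual and submandibular-labelled arrays, 1 was higher and 0 lower (median -0.02), against 0.948% and 0.59%. Dbh and Scn10a, counted as lower than in the parotid on both arrays, had a direction fixed by the dim side. So did Vip, counted as higher on the sublingual array.

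Sympathetic enzymes were near or below the background limit on most arrays. Th, the first enzyme of noradrenaline synthesis, was at -3.04 (sublingual), -3.01 (submandibular-labelled) and -3.31 (parotid, not well above background). These levels differ by at most 1.23-fold, so Th gives no clear order to set beside that of Dbh. Dbh, the enzyme that makes noradrenaline from dopamine, was well above background on the parotid array only, at -2.0, and was lower by at least 3.33-fold on the sublingual and by at least 2.98-fold on the submandibular-labelled array.

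Peptide genes of the list were read next. Tac1, for substance P and named after its values were seen, was not well above background on any array. Calca, for the sensory peptide CGRP and calcitonin, was well above background by 1 of its 3 probes, at 4.08 (sublingual), 4.95 (submandibular-labelled) and 5.44 (parotid), which is 2.56-fold lower on the sublingual array and 1.40-fold lower with the submandibular label than in the parotid. Vip, a vasodilator peptide of parasympathetic neurons, was well above background on the sublingual array only, at 0.10. Its sublingual level exceeded that of the submandibular-labelled array by at least 12.8-fold. Against the parotid array the measured levels differed by 8.69-fold, which is not a bound, since the dim parotid level (-3.02) lay above that array's limit. Npy, a peptide known from sympathetic neurons, was 13.2-fold higher on the sublingual and 15.4-fold higher on the submandibular-labelled array than on the parotid array. Scn10a, a sodium channel of pain-sensing neurons, was well above background on the parotid array only and was lower by at least 2.34-fold on the sublingual and by at least 2.10-fold on the submandibular-labelled array. For Ret, the GDNF-family receptor, sublingual minus parotid was 3.80 by 1 probe and at least 0.19 by another, which was not well above background on the parotid array.

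Ngfr was also read beside its ligands and co-receptors, in a list of 22 neurotrophic genes of which 20 were well above background on an array. Of 20 compared between the sublingual and parotid arrays, 2 were 2-fold or more above the parotid and 1 below it (median -0.43), against 12.5% and 12.3% of all genes. Of 20 compared between the submandibular-labelled and parotid arrays, 3 were higher and 0 lower (median -0.28), against 10.9% and 11.0%. Of 17 compared between the sublingual and submandibular-labelled arrays, 0 were higher and 1 lower (median -0.15), against 0.948% and 0.59%. Ntf3, neurotrophin-3 and a ligand of Ngfr, was well above background on the parotid array only, at a level of -2.75, and was lower by 1.99-fold or more on the sublingual and by 1.78-fold or more on the submandibular-labelled array.

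Sort1, sortilin, which pairs with Ngfr to bind pro-neurotrophins, was 2.15-fold lower on the sublingual and 1.74-fold lower on the submandibular-labelled array. Maged1, an intracellular partner of Ngfr, was higher than in the parotid by 0.54 on the sublingual and 1.102 on the submandibular-labelled array (log2). Cntf, a neurotrophic cytokine of myelinating Schwann cells, exceeded the parotid by 4.45-fold on the sublingual and 3.45-fold on the submandibular-labelled array. Gfra3, the artemin receptor, was lower by 0.95 and 0.44. Probes of Ntrk2, the BDNF receptor, had opposite directions against the parotid, with 2.42 and 3.68 for 1 probe and -0.33 and -0.54 for the other.

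Markers of other cells in a gland also differed between the arrays. Of all genes, 12.3% on the sublingual and 11.0% on the submandibular-labelled array lay 2-fold or more below the parotid. Summed over the list, adipocyte signal was 10.0 on the sublingual, 7.98 on the submandibular-labelled and 15.7 on the parotid array, in units of each array's 75th percentile. Of 6 adipocyte genes compared with the parotid, 3 lay 2-fold or more below it on the sublingual and 4 on the submandibular-labelled array (medians -1.02 and -1.42). Adipoq was 2.66-fold and 4.06-fold lower, and Plin1, Lep, Cidec, Pparg and Aqp7 were not well above background on any array. Fibroblast markers also differed. Their signal summed to 85.3 (sublingual), 73.7 (submandibular-labelled) and 212.8 (parotid), and 5 of 10 genes on the sublingual and 5 of 10 on the submandibular-labelled array lay 2-fold or more below the parotid (medians -0.95 and -1.09), with Col1a1, a collagen chain, 3.23-fold and 4.22-fold lower. Postn, counted on both arrays, was well above background on the parotid array only, so its direction was fixed.

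Endothelial signal summed to 13.2 (sublingual), 11.7 (submandibular-labelled) and 20.9 (parotid). At least 2-fold lower than in the parotid were 6 of 9 and 1 of 9 genes (medians -1.04 and -0.70), against 12.3% and 11.0% of all genes. The 1 of 9 is near the share of all genes. Leukocyte signal summed to 32.7 (sublingual), 31.1 (submandibular-labelled) and 48.8 (parotid), with 4 of 8 and 3 of 8 genes at least 2-fold lower (medians -0.87 and -0.67), against the same shares. Cd8a, counted on both arrays, was well above background on the parotid array only, so its direction was fixed. Myoepithelial and basal cell signal ran the other way, at 67.6 (sublingual), 83.3 (submandibular-labelled) and 28.1 (parotid). At least 2-fold higher were 5 of 7 and 6 of 8 genes (medians 1.28 and 1.53), against 12.5% and 10.9% of all genes. Skeletal muscle signal was 3.46 (sublingual), 3.998 (submandibular-labelled) and 2.39 (parotid), with Ckm and Myh4 not well above background on any array. Schwann cell signal itself, to which Sox10 and Cadm4 gave most, summed to 17.6, 24.4 and 52.7 in that order of arrays. Neuronal structure signal, to which Mapt and Rtn1 gave most, summed to 10.06, 11.1 and 9.25. The part of adipocytes, fibroblasts, endothelium, leukocytes, myoepithelium and skeletal muscle in the differences of Mbp, Ngfr, Pmp22, Prph and Gap43 was not tested.

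For the members well above background on all 3 arrays, the genes with the nearest pattern were named among 9387 genes, by the distance between levels centred over the 3 arrays. Gap43 lay nearest to Ms4a6a (0.03), Barhl1 (0.05) and Ms4a6bl1 (0.08), with 9 genes within 0.1. Prph lay nearest to Ncapd3 (0.03), Zcchc7 (0.06) and Eml5 (0.08), with 7 genes within 0.1. Mbp lay nearest to Tyms (0.01), Fbxl7 (0.02) and G0s2 (0.02), with 74 genes within 0.1. Pmp22, the least variable, had 393 genes within 0.1, the nearest being Cluap1, C20h6orf89 and Mark2. Ngfr was not searched, since it was not well above background on the sublingual array. With 3 arrays, such likeness is a description of a pattern of 3 levels.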

How the data were processed

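RNA of 3 glands was measured on 1 array each (500 ng labelled, per the labels' protocols). The deposited intensity values were made, per the file headers, with Agilent Feature Extraction 10.1.1.1, protocol GE1-v5_10_Apr08, array design 014879, with coordinates in rn4. The authors' deposited value table gives each spot a ratio on a linear scale, the processed signal divided by an array constant (250.0 on the sublingual, 236.0 on the submandibular-labelled, 190.1 on the parotid array, constant within 0.0142 on the log2 scale for signals over 1000). Its columns have medians of 0.128, 0.122 and 0.152 in that order. The sources used here do not give how that constant was set.

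Outlier-flagged spots were dropped, log2 processed signals were averaged per probe, and each array's 75th percentile was subtracted. A probe was well above background where over 0.5 of its spots carried that scanner flag. Where 1 array of a pair was dim, the difference is a bound against the higher of that array's lowest level well above background (-3.74 sublingual, -3.58 submandibular-labelled, -3.43 parotid) and the dim probe's own level, and the fold is given as "at least". Such a difference can only favour the array that is not dim or be missing, also within the counts and medians of lists. A gene was represented by its probe with the highest mean level. Of 41012 gene probes, 40999 had an unflagged spot on every array and 20255 were matched to 1 RefSeq gene by accession, symbol, older symbol or gene identifier (assembly GRCr8, names only).

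No test was made, since no gland has a second array. Errors are the SD of repeat spots or, for single spots, the scanner software's error, and cover technical error on 1 array. The SD of repeat spots describes single spots and is not the error of their mean. Alternatives were normexp (limma 3.58.1, offset 50), quantile normalization, median centring, the deposited values, a looser background flag, outlier spots kept, the median of a gene's probes and a 4-fold threshold. Calculations used Python 3.11.15, numpy 2.4.6, pandas 2.3.3 and R 4.3.3, and were tested on simulated data. The members and gene lists were chosen with earlier results of these data known. Genes named were the members, preset defining markers, up to 6 genes per list with the largest difference from the parotid, and the 3 nearest patterns per member. Some genes of these lists are counted but not reported here by name.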

Additional observations from a re-analysis of the deposited data

How the results depend on the processing

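No paired analysis was possible because each gland has 1 array, and no array could be left out. The differences from the parotid of submandibular-labelled Ngfr and of the brighter Mbp probe kept their direction under all 6 alternatives run on probes. So did those of Prph and Gap43 that involve the submandibular-labelled array. Sublingual Ngfr, and the second Mbp probe on both arrays other than the parotid, were not well above background. Except under the looser flag, their differences from the parotid could only be negative or missing, so their kept direction is no support. Reversals were small values: with median centring, sublingual minus parotid became 0.063 for Gap43, 0.193 for Prph and 0.128 for the neuronal median; with normexp, sublingual minus submandibular-labelled became -0.175 for the brighter Mbp probe. The neuron structure median became -0.111 for sublingual minus parotid (normexp), -0.153 for sublingual minus submandibular-labelled (positive and significant flag), and 0.112 (median centring) or 0.093 (median of a gene's probes) for submandibular-labelled minus parotid. The glial median of sublingual minus parotid was -0.649 with median centring, -0.479 with normexp and -0.698 with quantile normalization, and that of submandibular-labelled minus parotid -0.681, -0.304 and -0.731. These are the values of the brighter Mbp probe. With the median of a gene's probes, the glial median of sublingual minus submandibular-labelled was -0.282. The neuronal median of sublingual minus submandibular-labelled was 0.526 with normexp, and that of submandibular-labelled minus parotid was -0.764 with median centring and -0.647 with normexp. Members at least 2-fold lower than in the parotid numbered 0 (normexp) on the sublingual array, and 1 (median centring), 0 (normexp), 1 (quantile) and 0 (4-fold threshold) on the submandibular-labelled array. On the latter they numbered 4 with the deposited values and 4 with the median of a gene's probes. Of the Schwann cell list, 1 gene on each array was lower at the 4-fold threshold, and 4 on the submandibular-labelled array with normexp. The offset of 50 that normexp adds is of the size of the Ngfr, Gap43 and Mbp signals, and shrinks their differences by construction. The list results were added after seeing the data. Signal over background limits S100b and Uchl1, for which no difference could be given, and Mbp and Ngfr on the sublingual and submandibular-labelled arrays.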
